A study of Rattus norvegicus with 12 samples.

Results

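miR-375, miR-7a and miR-7b are miRNAs best known from hormone-secreting cells, and here they were followed in acinar cells of the rat parotid gland, which secrete saliva proteins. They were found by name among the 375 miRNA assays of a qRT-PCR panel: 3 of the 375 assays carry one of these names, each a mouse-named (mmu) assay, with no rat-named duplicate and no assay for the opposite arm. These miRNAs were chosen by their values in these samples, from earlier results in which miR-375 differed most between the first and the last age, so their differences between ages are given as a description, with no test.

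The panel was run on 12 samples of RNA from acinar cells taken by laser capture microdissection from parotid glands of albino Sprague Dawley rats. There were 3 samples at each of 4 ages: embryonic day 20 (E20) and postnatal days 5, 15 and 25 (P5, P15 and P25). In animals older than P5 the authors removed the gland before freezing, and at embryonic and earlier postnatal ages they froze halved heads. Tissue handling and age therefore cannot be told apart between E20 and P25. The labels name no transgene and no treatment, samples within an age came from separate litters, and the sex of the animals is not given in the sources used here. Each sample is a bulk extract of many captured cells, so fewer cells with a miRNA and less of it per cell cannot be told apart.

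A miRNA binds mRNAs mainly through its seed, bases 2 to 8 of the mature strand, and lowers their translation or stability. miR-375 is abundant in the islets of the pancreas, where it restrains insulin release and is needed for a normal number of beta cells; it is also found in the pituitary and in neuroendocrine cells of other epithelia. miR-7 is abundant in islets, the pituitary and the hypothalamus, restrains regulated exocytosis in beta cells, and is held by the circular RNA Cdr1as in the brain. Acinar cells release stored granules too, through an exocrine route, and the rat parotid fills with such granules between birth and weaning.

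The mature sequences are printed to show which members can act alike, with the seed in capitals, 5′ to 3′, from RefSeq annotation of the GRCr8 rat assembly, in which all 3 of the 3 member assays found a match by name.
rno-miR-375-3p: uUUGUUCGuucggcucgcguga
rno-miR-7a-5p: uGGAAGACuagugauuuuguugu
rno-miR-7b: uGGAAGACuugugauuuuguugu
miR-7a and miR-7b share the seed GGAAGAC and differ at 1 of 23 bases, A10U, counted from the 5′ end of miR-7a, so they form 1 seed family. No other rat mature miRNA in the table carried that seed, and the seed of miR-375, UUGUUCG, belonged to miR-375-3p alone. The panel's names give no arm, and these older names denote the arms printed here; the primer sequences were not used here.

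miR-375 comes from 1 locus on the minus strand, where the mature strand lies at chr9:83906591-83906612. Its precursor lies at chr9:83906582-83906656 and is shown to place the mature strand, in capitals, on the 3′ arm of the hairpin.
Mir375 precursor: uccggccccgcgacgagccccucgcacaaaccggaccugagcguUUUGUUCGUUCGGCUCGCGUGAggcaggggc
The precursor overlaps the spans of Cryba2, a crystallin gene, and LOC134480387, and lies between the protein-coding genes Fev and Cfap65. The same mature miR-7a is made at chr17:6278710-6278732, within the span of Hnrnpk, and at chr1:142215818-142215840, over the noncoding gene LOC120099863 and between Det1 and Aen, both on the plus strand. miR-7b lies at chr9:1167464-1167486 on the plus strand, over the pseudogene Rpl35l3 and between Dpp9 and Fem1a. RefSeq lists the second miR-7a locus and the miR-7b locus under the symbols Mir8 and Mir9, with Mir7a-2 and Mir7b as synonyms. A qRT-PCR assay of the mature strand cannot separate both miR-7a loci.

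Each value began as a threshold cycle (CT), the PCR cycle at which the signal of a well crosses a threshold, so a lower CT means more miRNA. The level used below is an array's median CT over its detected miRNAs, minus the CT of the miRNA in question, on a log2 scale on which 1 unit is taken as a factor of 2 and a level of 0 is the middle of that array. The arrays detected 282 to 306 miRNAs at E20, 224 to 307 at P5, 179 to 273 at P15 and 202 to 223 at P25, the fewest at their ages being P5 replicate 1 and P15 replicate 1. The array median CT was between 31.9 and 32.3 at E20 and between 33.7 and 34.2 at P25, so detection and overall CT moved with age; their part in the differences below was not tested. A well without a CT lies below the level that a CT of 40 would have had on that array, and this bound is given in place of a value. Single wells lose precision as the CT rises. For miRNAs with assays of both species, the SD of the CT difference over samples had a median of 0.495 cycles in 3 pairs measured below CT 32 on average and of 1.71 cycles in 7 pairs above 35.

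miR-375 lay in the lower part of the arrays before birth and among the miRNAs with the lowest CT at P25. At E20 its level was -2.71 in replicate 1 and -5.40 in replicate 3, and replicate 2 gave no CT, which places it below -7.81. At P5 the level was -0.59 in replicate 2 and -0.57 in replicate 3, with no CT and a bound of -5.86 in replicate 1. At P15 the levels were 1.98, 3.72 and 5.05 in replicates 1 to 3, and at P25 they were 5.48, 6.51 and 5.44. Every measured value of an age lay above every measured value of the age before it, with the smallest gap, 0.39, between P15 replicate 3 and P25 replicate 3. The bound of P5 replicate 1, the P5 array with the fewest detected miRNAs, lies below every other measured value of miR-375, so the order holds for measured wells only.

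At E20 the mean level of miR-375 was -4.06 ± 1.9 and at P5 it was -0.58 ± 0.01 (SD, n = 2 each). At P15 it was 3.58 ± 1.54 and at P25 it was 5.81 ± 0.60 (SD, n = 3 each). The steps between these means were 3.47 from E20 to P5, 4.17 from P5 to P15 and 2.23 from P15 to P25, or 11.1-fold, 17.9-fold and 4.68-fold. Each step was larger than the larger SD of its 2 ages. From E20 to P25 the measured means differed by 9.87, a 933-fold difference. With wells lacking a CT imputed from similar miRNAs, which set E20 replicate 2 to 1.26, above both measured E20 samples, the fitted difference was 8.09 (SE 1.32), a 273-fold difference. The imputed value lies far above the bound of that same well, and the wells at CT 34.6 and 37.7 that carry the E20 mean are in the imprecise range.

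**Figure D1:**
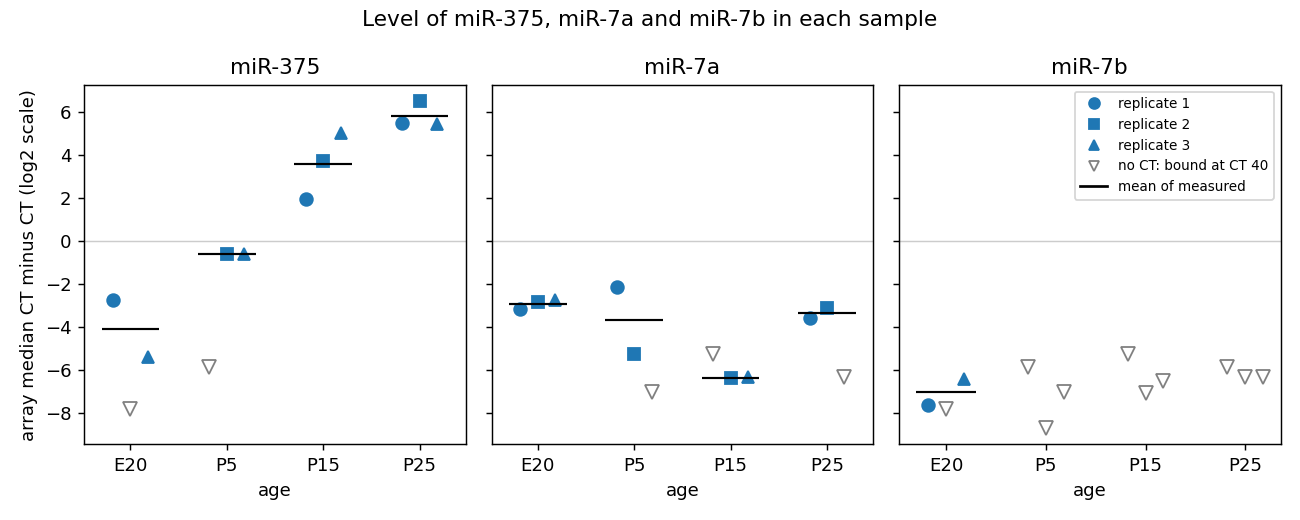
Level of miR-375, miR-7a and miR-7b in each of the 12 samples, as array median CT minus CT on a log2 scale (y axis), by age (x axis). Filled symbols are measured wells by replicate, open triangles are upper bounds for wells with no CT, and lines are means of the measured wells: miR-375 goes from -4.06 at E20 to 5.81 at P25, miR-7a has its lowest mean, -6.34, at P15, and miR-7b was measured at E20 only.

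The difference of miR-375 between E20 and P25 ranked 1 of 192 by value among the miRNAs with a CT in at least 2 of 3 samples at every age. In the limma comparison of these ages, 23 of the 192 miRNAs passed (12%), 8 higher and 15 lower at P25, 62 (32.3%) were under 0.05 before adjustment, and the median difference of all 192 was 0.15. In 39 of the 192 (20.3%) every P25 well with a CT gave a higher level than every such E20 well, and an ascending order over the 4 ages without overlap was found in 1 (0.521%), miR-375; a descending one was found in 0. Since miR-375 was selected on this contrast, these counts only place it. The ascending order was also present against the median CT of the 120 always detected miRNAs and was absent in the CT values as deposited, in which the wells at P15 overlap those at P5 and P25.

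The abundance rank on an array needs no reference. Rank 1 is the lowest CT, and ranks compare assays whose amplification may differ, so they describe an order of CT values and not of molecules. miR-375 ranked 240 of 302 and 261 of 282 in the measured E20 samples, 180 of 307 and 145 of 254 at P5, and 48 of 179, 43 of 273 and 26 of 247 at P15. At P25 it ranked 10 of 202, 7 of 223 and 15 of 223. The share of detected miRNAs with a lower CT was thus 79.1% and 92.2% at E20 and between 2.69% and 6.28% at P25. Fewer miRNAs are detected on the later arrays, but when miR-375 was placed among the 120 miRNAs with a CT in every sample, the ranks ran the same way: 108 and 117 at E20, 100 and 97 at P5, 47, 41 and 26 at P15, and 10, 7 and 15 at P25.

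**Figure D2:**
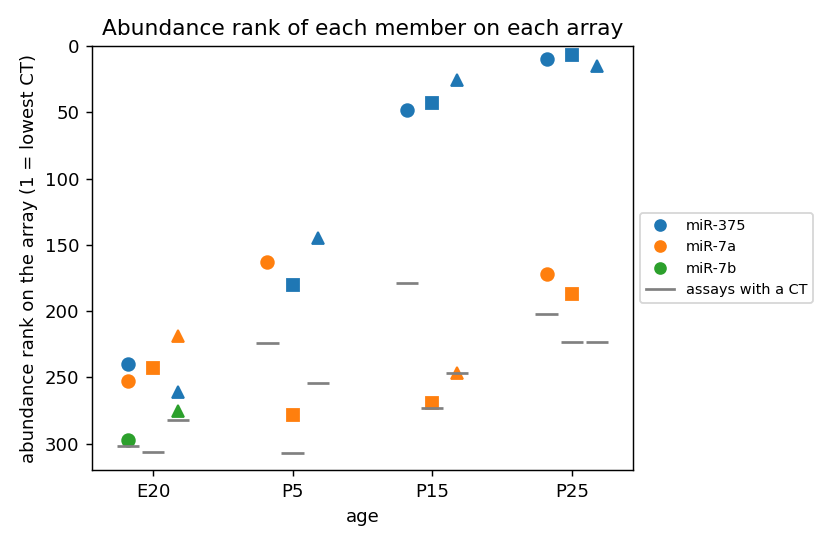
Abundance rank of miR-375, miR-7a and miR-7b on each array by age, counted from 1 for the lowest CT at the top of the y axis; symbols differ by replicate as in the plot of levels, and grey bars mark how many assays gave a CT on the array. miR-375 goes from 240 and 261 at E20 to between 7 and 15 at P25, while miR-7a is never above rank 163 and is the last detected miRNA, 247 of 247, in P15 replicate 3.

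miR-7a was near the limit of the assay at all 4 ages. All 9 of its measured wells had a CT above 35, against 28.2% of all 3022 measured wells, and the highest, 39.8, was in P15 replicate 3. Its level at E20 was -3.17, -2.82 and -2.72 in replicates 1 to 3, the only age at which all 3 samples gave a CT. At P5 it was -2.12 and -5.24 in replicates 1 and 2, with no CT and a bound of -7.00 in replicate 3. At P15 it was -6.37 and -6.30 in replicates 2 and 3, with no CT and a bound of -5.25 in replicate 1, the array with the fewest detected miRNAs. At P25 it was -3.58 and -3.10 in replicates 1 and 2, with no CT and a bound of -6.30 in replicate 3. The high P5 value came from replicate 1, the P5 array with the fewest detected miRNAs, and the part of that array's reference in it was not tested.

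In descending order, the mean level of miR-7a was -2.90 ± 0.23 at E20 (SD, n = 3), then -3.34 ± 0.34 at P25, -3.68 ± 2.21 at P5 and -6.34 ± 0.05 at P15 (SD, n = 2 each). The measured values of E20, P5 and P25 overlapped one another. The measured P15 values lay below the measured values of every other age, with a mean difference of -3.44 from E20 (10.8-fold). This order holds for measured wells only. The bound of P15 replicate 1 allows a value above both measured P15 values. P5 replicate 3, with no CT and a bound of -7.00, lies below both of them. P25 replicate 3, also with no CT, has a bound of -6.30, about the level of the measured P15 values. The fitted difference of miR-7a from E20 to P25 was -0.50 (SE 1.03), ranking 120 of 192. This fit set P25 replicate 3 to an imputed -3.54, above the bound of -6.30 for that same well. With missing wells at CT 40 the difference was -1.43, and with missing wells left out it was -0.44. Its sign turned with the array reference. It was 0.50 (SE 3.19) against the small nuclear RNAs and 0.23 (SE 1.23) with the array median taken after imputation. Among the detected miRNAs, miR-7a ranked between 219 and 253 at E20, 163 and 278 at P5, 269 and 247 at P15, and 172 and 187 at P25.

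miR-7b, the other member of the seed family, gave a CT in 2 of 12 samples. These were E20 replicate 1, at CT 39.6 and a level of -7.63, rank 297 of 302, and E20 replicate 3, at CT 38.7 and a level of -6.41, rank 275 of 282. The other 10 samples gave no CT, so miR-7b did not enter any test. Its detection cannot be read as a difference between ages, because at 7 of the 9 later samples the bound set by CT 40, from -8.67 to -5.25 over those samples, lies above the mean E20 level of -7.02 ± 0.86 (SD, n = 2). A CT in at least 2 E20 samples and in no later sample was seen for 3 of the 375 assays (0.8%): miR-384-3p, miR-345-3p and miR-7b, with lowest CT values of 34.5, 35.6 and 38.7. In the E20 samples where both were measured, miR-7a had a lower CT than miR-7b.

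The difference between wells of the same array is free of any array reference. The CT of miR-7a minus that of miR-375 was 0.45 and -2.68 cycles in E20 replicates 1 and 3, so before birth neither was consistently ahead. It was 4.65 in P5 replicate 2, 10.1 and 11.4 in P15 replicates 2 and 3, and 9.07 and 9.61 in P25 replicates 1 and 2. Where both were measured, miR-375 thus moved away from miR-7a by P15, with the P15 pair lying above the P25 pair.

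miR-148a, an abundant miRNA of the pancreatic acinar cell, gave a second reference-free comparison. The CT of miR-375 exceeded that of miR-148a by 7.14 ± 1.05 cycles at E20 and 6.28 ± 0.55 at P5 (SD, n = 2 each), and by 2.44 ± 0.81 at P15 and 2.29 ± 0.75 at P25 (SD, n = 3 each). The values of E20 and P5 overlapped, those of P15 and P25 overlapped, and neither early age overlapped either late age. In level, miR-148a went from 2.90 ± 0.68 at E20 to 5.49 ± 0.53 at P5, 6.03 ± 1.03 at P15 and 8.10 ± 0.38 at P25 (SD, n = 3 each). The distance between miR-375 and miR-148a thus became smaller between P5 and P15.

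**Figure D3:**
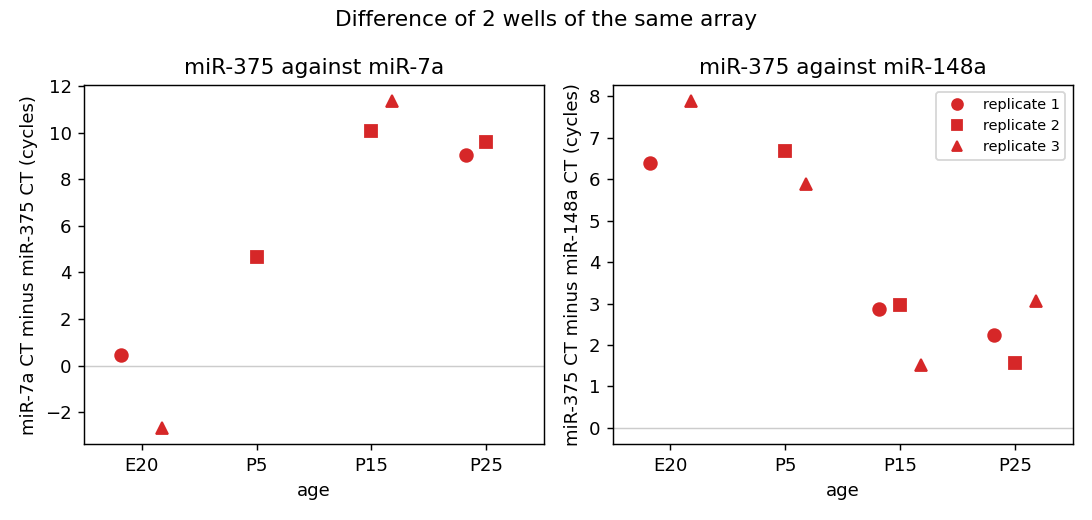
Differences in CT between wells of the same array, in cycles (y axes), by age, 1 symbol per sample with both wells measured. The CT of miR-7a exceeds that of miR-375 by 10.1 and 11.4 at P15 after 0.45 and -2.68 at E20 (left), and the CT of miR-375 above miR-148a falls from between 5.89 and 7.88 at E20 and P5 to between 1.51 and 3.06 at P15 and P25 (right).

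Among the 120 miRNAs with a CT in all samples, the 5 whose levels were most like miR-375 over its 10 measured samples were let-7b (Pearson r = 0.95), miR-148a (0.93), let-7c (0.89), miR-320 (0.83) and let-7a (0.83). With the samples farthest from the median of miR-375 left out, 2 in number, these correlations were 0.91, 0.80, 0.86, 0.89 and 0.82. By Spearman's rho they were 0.95, 0.90, 0.84, 0.82 and 0.82. The samples share age and array, so these are descriptions of profile and carry no p-value. The let-7 family, whose members are known to accumulate as cells differentiate, gave 3 of the 5, and their sequences are printed with miR-148a because near-identical strands may share signal between assays.
rno-let-7a-5p: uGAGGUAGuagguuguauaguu
rno-let-7b-5p: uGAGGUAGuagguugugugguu
rno-let-7c-5p: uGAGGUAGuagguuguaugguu
rno-miR-148a-3p: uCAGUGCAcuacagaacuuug
The 3 let-7 strands carry 1 seed, GAGGUAG, found in 9 rat mature names, and let-7b and let-7c differ at 1 of 22 bases (G17A, counted from the 5′ end of let-7b). Neither this seed nor that of miR-148a, CAGUGCA, is that of miR-375 or miR-7.

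These companions covered a smaller range than miR-375. let-7b went from 4.43 ± 0.65 at E20 to 5.42 ± 0.21, 7.18 ± 0.67 and 7.45 ± 0.84 at P5, P15 and P25 (SD, n = 3 each). let-7c went from 2.56 ± 0.95 at E20 to 5.31 ± 1.00 at P25, and let-7a from 2.32 ± 0.71 to 3.92 ± 0.59 (SD, n = 3 each). miR-320 went from 3.28 ± 0.72 to 5.21 ± 0.85 (SD, n = 3 each), with 2.78 at P5, below its E20 mean, and 5.02 at P15. Fitted differences from E20 to P25 were 3.02 (SE 0.72) for let-7b, 2.75 (SE 0.83) for let-7c, 1.60 (SE 0.72) for let-7a and 1.93 (SE 0.79) for miR-320, against 8.09 (SE 1.32) for miR-375. let-7b and miR-320 had similar means at P15 and P25, ages between which the means of miR-375 differed by 2.23.

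The 3 miRNAs with the lowest correlation with miR-375 were miR-433 (r = -0.80), miR-495 (-0.77) and miR-214 (-0.73). Without the 2 samples farthest from the median of miR-375 these were -0.66, -0.55 and -0.66. Against the median CT of the always detected miRNAs they were -0.78, -0.56 and -0.77. miR-433 and miR-495 belong to the large imprinted Dlk1-Dio3 cluster, and miR-214 is a miRNA of mesenchymal cells. Their mean levels went from 1.65 ± 0.35 to -4.08 ± 0.85 for miR-433, from 3.09 ± 0.25 to 0.89 ± 0.79 for miR-495, and from 3.25 ± 0.41 to -1.28 ± 1.92 for miR-214 between E20 and P25 (SD, n = 3 each). For miR-7a, over its 9 measured samples, the most alike were miR-337-3p (r = 0.81), miR-652 (0.75) and miR-598 (0.61); without the samples farthest from its median, again 2 in number, these were 0.54, 0.25 and 0.12, so they rest largely on those samples.

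**Figure D4:**
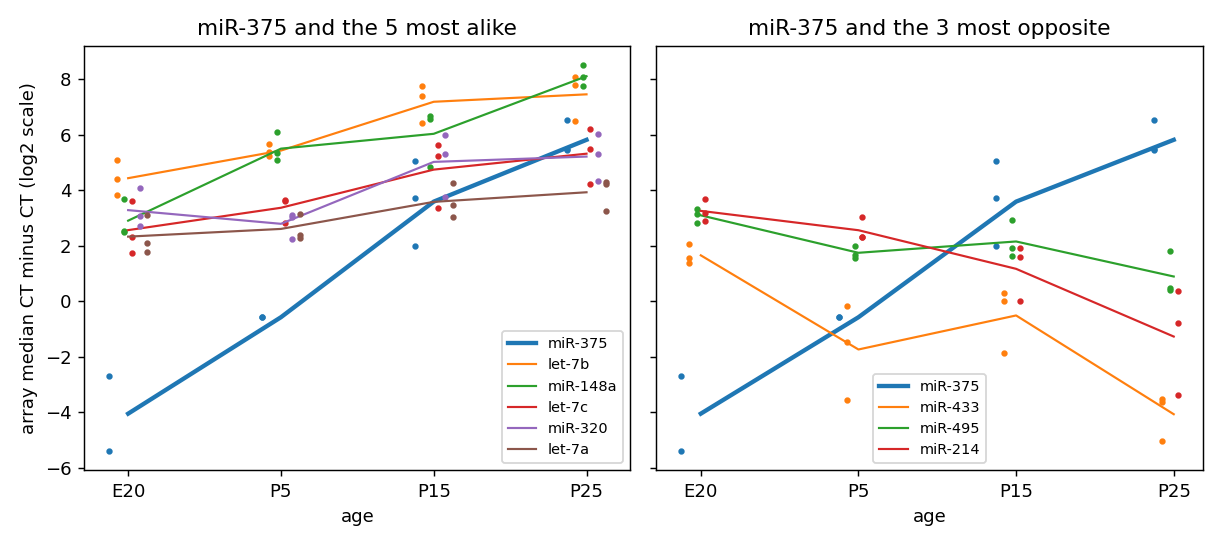
Level of miR-375 with the 5 miRNAs most like it (left) and the 3 most opposite to it (right), as array median CT minus CT on a log2 scale, by age; points are samples and lines join the means of measured samples. miR-375 spans -4.06 to 5.81, while let-7b, the closest by correlation, spans 4.43 to 7.45.

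Of the other miRNAs studied in islet and endocrine cells, 1 passed the test between E20 and P25. Of 20 such assays, which include miR-9, miR-124, the miR-29 family and the miR-183 cluster, 14 were tested, and 1 rose and 0 fell by limma with Benjamini-Hochberg adjustment over all 192 tested, of which 12% passed; 3 had an unadjusted p-value under 0.05, against 32.3% of all tested. The median difference of the 14 was 0.15, that of all tested miRNAs. The detection rule left 6 assays untested, and some of them, named after their values were seen, lay apart between these ages. miR-29a gave no CT at E20, with bounds from -8.07 to -7.71, and had a mean of -0.02 at P25 (n = 3). Level means went from 2.03 (n = 3) to -4.60 (n = 1) for miR-335-5p and from 0.11 (n = 3) to -5.90 (n = 1) for miR-9, and from -5.12 (n = 2) to -0.54 (n = 3) for miR-29b, so counts and medians of the tested assays do not cover the list. The member that passed was miR-29c, known for lowering matrix and adhesion mRNAs, with a difference of 3.53 (SE 1.02, adjusted p = 0.0374, limma). Its call was lost in 6 of the 12 fits that each left out 1 sample (each of the E20 and P25 samples), in which its difference stayed between 3.09 and 3.83 and the highest adjusted p was 0.118. It passed against 3 of 6 other references, with differences from 1.80 in the CT values as deposited to 4.53 against the small nuclear RNAs, and it did not pass with missing wells at CT 40 (adjusted p = 0.134, limma) or without moderated variances (adjusted p = 0.0907).

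Of 4 assays for miRNAs of pancreatic exocrine acinar cells, 3 were tested and 1 passed, against 12% of all tested. This was miR-148a, which rose by 5.20 (SE 0.74, adjusted p = 0.000703, limma). It passed in all 12 fits that left out 1 sample and against 4 of 6 other array references, with differences from 3.48 to 6.21; it did not pass against the small nuclear RNAs or in the CT values as deposited (adjusted p = 0.998 and 0.0685, limma). The mouse and rat assays of miR-217, which is used as an acinar marker in the pancreas, differed by 0.82 and 1.83 and did not pass, the latter with an adjusted p of 0.295 (limma). miR-216a, from the same genomic cluster as miR-217, was not tested because too few samples gave a CT. The median of the 3 was 1.83, against 0.15 for all tested miRNAs.

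The cells were labelled as acinar, and miRNAs of epithelial cells gave a CT in all 12 samples for all 9 assays. Their summed level was 6.93 to 8.35 at E20, 7.43 to 8.14 at P5, 6.42 to 9.72 at P15 and 8.10 to 9.07 at P25. Of the 9 assays tested, 7 had a higher and 2 a lower mean at P25, with a median of 2.02; 0 passed in limma, against 12% of all tested, 6 had an unadjusted p-value under 0.05, against 32.3%, and 0 passed in the same contrast without moderated variances. The largest difference was 2.75 (SE 0.94, adjusted p = 0.0635, limma), in the mouse assay of miR-200c, which helps to hold the epithelial state. The 2 lower at P25 were miR-205 and miR-203. miR-205 went from 6.75 at E20 to 4.52 at P25, a difference of -2.23 (SE 0.76, adjusted p = 0.0626, limma). That of miR-203 was -2.13 (SE 1.10, adjusted p = 0.192, limma).

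Nerve cells carry miR-7, so the nerve miRNAs are given beside it; miR-9 and miR-124 are on this list and on the endocrine one. Of 11 nerve assays, 4 were tested; 0 passed with or without moderated variances in limma, the median was -0.42, and 1 was under 0.05 before adjustment, against 12% and 32.3% of all tested. Among the tested assays the largest difference was that of miR-124, which is abundant in neurons, at -2.72 (SE 1.22, adjusted p = 0.139, limma), and miR-488 gave no CT in any sample. Of the tested assays 3 were lower at P25 and 1 was higher, miR-383, by 2.28 (SE 1.27, adjusted p = 0.231, limma). The median leaves out 7 untested assays, among them miR-9, given above, and miR-323-3p, miR-137, miR-129-5p and miR-129-3p, which had a CT in 1 to 3 E20 samples and in 0 at P25 (named after their values were seen). The untested miR-138 went from -1.59 (n = 3) to -1.77 (n = 1). The summed level ran from 2.45 to 4.90 at E20, 1.96 to 3.42 at P5, 0.28 to 3.03 at P15 and 1.07 to 4.03 at P25, and the ranges of the 4 ages overlapped. The part of nerve RNA in the level of miR-7a was not tested.

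Markers of other cell types differed between E20 and P25 in the same samples, ages that also differ in tissue handling. Of all tested miRNAs 12% passed, the share to set beside the counts that follow. Of 5 striated muscle assays 3 were tested and 2 fell, miR-1 with a log2 difference of -3.28 and miR-133b with one of -4.07 (adjusted p = 0.0331 and 0.0376, limma). The summed level went from between 4.36 and 6.23 at E20 to between 0.17 and 1.88 at P25. Of 3 mesenchyme assays 1 fell, miR-214, with a difference of -4.53 (SE 0.91, adjusted p = 0.00466, limma), and the summed level went from between 4.81 and 5.57 to between 2.30 and 2.68. Of 3 smooth muscle assays 1 rose, miR-145, by 4.74 (SE 1.43, adjusted p = 0.0388, limma), and the summed level went from between 4.77 and 5.11 to between 6.43 and 7.35. The mouse and rat assays of miR-143 differed by 0.99 and 1.09 and did not pass (adjusted p = 0.401 and 0.434, limma). Without E20 replicate 1 the difference of miR-145 was 2.35 with an adjusted p of 0.113. In the 12 fits that each left out 1 sample, miR-214 passed in 12, with its difference between -5.34 and -3.47. miR-1 passed in 7, losing its call without E20 replicate 1 or 2 or any P25 sample, with differences between -3.68 and -2.77. miR-145 passed in 6, losing its call without E20 replicate 1, P5 replicate 3, P15 replicate 3 or any P25 sample. miR-133b passed in 5, losing its call without P5 replicate 3 or any E20 or P25 sample, with differences between -4.59 and -3.57; the highest adjusted p of these fits was 0.118.

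Of these calls, those of miR-1, miR-133b and miR-145 were not made without moderated variances (adjusted p = 0.0667, 0.128 and 0.144) or with missing wells at CT 40 (adjusted p = 0.226, 0.283 and 0.121, limma), while miR-214 passed in both. Against the 6 other references miR-214 and miR-1 passed with 5, miR-133b with 4 and miR-145 with 2. The differences over these references ran from -6.25 to -3.52 for miR-214, -5.01 to -2.28 for miR-1, -5.79 to -3.06 for miR-133b and 3.02 to 5.74 for miR-145.

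For leukocytes, 4 of 6 assays were tested and 0 passed in limma with or without moderated variances, against 12% of all tested. An unadjusted p-value under 0.05 was found for 1, against 32.3% of all tested. The largest difference among the tested was 1.78 for miR-150 (adjusted p = 0.139, limma). It was the 1 tested assay higher at P25, and 3 were lower, with a median of -0.53. These were miR-142-3p (-0.52) and the mouse and rat assays of miR-223 (-0.54 and -0.61). The untested assays, named after their values were seen, were miR-142-5p and miR-155. miR-142-5p went from -3.58 (n = 3) to -1.39 (n = 1), and miR-155 had a mean of -0.53 at E20 (n = 3) and no CT at P25. miR-126-3p of endothelium differed by 0.93 (adjusted p = 0.474, limma), and 0 of the 3 erythrocyte assays could be tested. The summed levels of leukocytes were 1.98 to 3.00 at E20 and 1.65 to 3.24 at P25, and those of endothelium 2.56 to 3.93 and 2.71 to 4.88. Those of erythrocytes were 0.88 to 2.70 at E20. At P25 between 0 and 3 of the erythrocyte assays gave a CT in a sample, and the highest summed level was 0.94. The part of these cells in the levels of miR-375 and miR-7a was not tested.

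The size of the miR-375 difference depended on how a well with no CT was treated and on the reference. Under the array references and the other settings that could be fitted it lay between 6.33 and 11.12, lowest without E20 replicate 3 and highest with the missing wells set to CT 40. Relative to the median of all tested miRNAs it was 7.95 under every reference, because a reference moves all miRNAs of an array alike; in the CT values as deposited the difference was 6.37 and ranked 4 by size. The difference of miR-7a minus that median was -0.65 in the same settings.

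**Figure D5:**
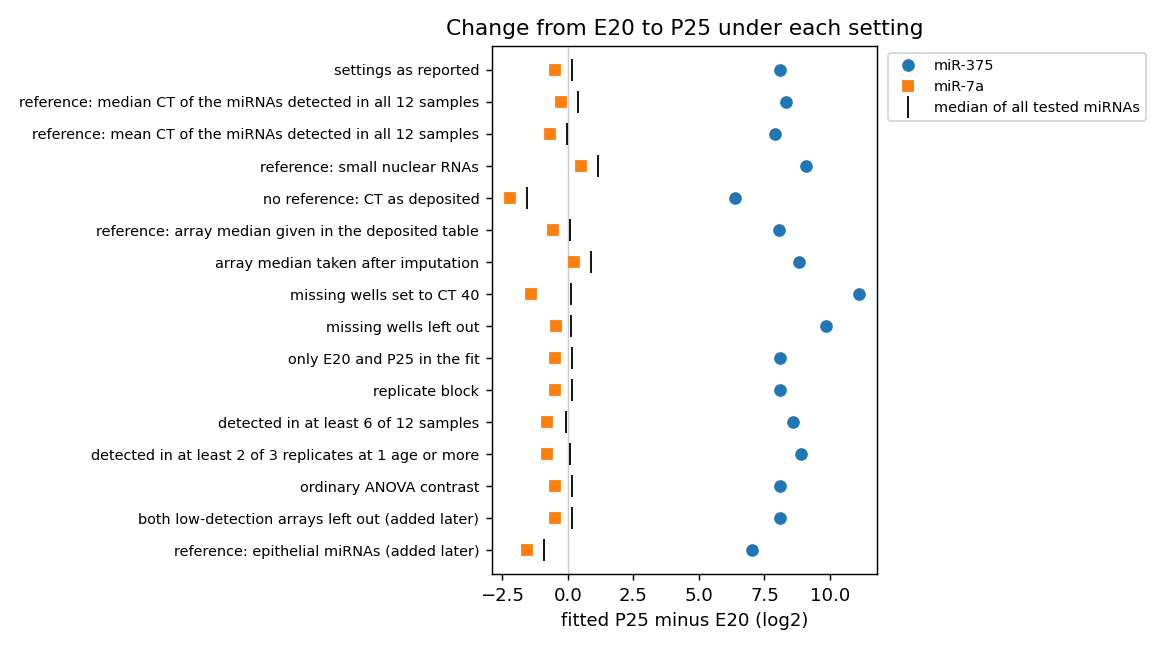
Fitted difference from E20 to P25 on the log2 scale (x axis) for miR-375, miR-7a and the median of all tested miRNAs, under the settings as reported and the alternatives that keep all samples or leave out both P5 replicate 1 and P15 replicate 1 (y axis). The lowest value of miR-375 drawn is 6.37, and miR-7a lies on both sides of 0, from -2.23 to 0.50.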

How the data were processed

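The RNA of 12 samples of parotid acinar cells was measured with the Exiqon Mouse&Rat panel I. The authors reverse transcribed 1 ng of total RNA per sample, ran SYBR green qRT-PCR and deposited the raw CT of each well, a score with no normalization or imputation applied. Ages and replicates came from the labels. Detection meant a CT under 40. The tested miRNAs had this in 2 or more of the 3 samples of every age. Levels are the array median of detected miRNAs minus CT, with missing wells then imputed from 10 nearest neighbours, whose number is not given in the sources used here. limma 3.58.1 in R 4.3.3 fitted the 4 age means over 12 samples, with Benjamini-Hochberg adjustment over all tested miRNAs and an adjusted p-value under 0.05, and was tested on simulated data. Plots used matplotlib 3.10.9.

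The members and the lists were chosen with earlier results of these data known. miRNAs named besides the members were the 5 most and 3 least correlated with miR-375, the 3 most correlated with miR-7a, and the list miRNAs passing limma or, where none passed, the one with the largest difference. Some further list miRNAs were named after their values were seen, among them untested ones and ones that differed in the other direction. Alternatives covered reference, missing wells, detection limit, filter, test and each sample left out; both alternatives added after the values were seen are marked so. The number of wells with a CT stands for depth, and precision falls as CT rises.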

Additional observations from a re-analysis of the deposited data

How the results depend on the processing

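The difference of miR-375 between E20 and P25 (8.09) kept its sign in all 27 alternatives that could be fitted, and moved by more than the SD between replicates in 1, to 11.12 with missing wells set to CT 40. Leaving out 1 sample gave 6.33 (without E20 replicate 3) to 9.87 (without E20 replicate 2). It could not be fitted with a CT limit of 37 or 35, since too few wells remained. With 1.9 in place of 2 times more template per cycle, the fold was 180 in place of 273. The difference of miR-7a (-0.50) was 0.50 against the small nuclear RNAs, -2.23 with CT as deposited, 0.23 with the array median after imputation, -1.43 with missing wells at CT 40 and -1.57 against the epithelial miRNAs, a reference added after the values were seen. Without 1 sample it was -0.64 to -0.44.

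The count of list miRNAs that passed (6) was 11 against the median of always detected miRNAs, 0 against the small nuclear RNAs, 15 with the median after imputation, 2 with missing wells at CT 40, 11 with only E20 and P25 in the fit, 2 in the ordinary ANOVA contrast, and 13 without P5 replicate 1 and P15 replicate 1, added after the values were seen. Without 1 sample it was 2 to 12, the highest without P15 replicate 1. The count of all 192 (23, 8 higher and 15 lower at P25) was 40 with that median of always detected miRNAs (20 higher and 20 lower), 35 with their mean (10 and 25), 0 with the small nuclear RNAs (1 at an unadjusted p-value under 0.05), 47 with the median after imputation (34 and 13), 10 with missing wells at CT 40, 11 of 119 tested with a CT limit of 35, 35 with only E20 and P25, 38 of 276 tested with detection in at least 6 of 12 samples, 41 without P5 replicate 1 and P15 replicate 1, and 48 with the epithelial reference (3 and 45). With CT as deposited 1 was higher and 25 lower. Without 1 sample it was 11 to 39, the highest without P15 replicate 1. A reference moves all miRNAs together: the median difference of all tested was 0.15, and 0.38, -0.03, 1.15, -1.58, 0.88 and -0.92 with the median and mean of always detected miRNAs, the small nuclear RNAs, no reference, the median after imputation and the epithelial miRNAs. The causes of the other changes were not tested.

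The ages share replicate numbers 1 to 3. Deviations of same-numbered E20 and P25 samples correlated between -0.02 and 0.12, with 1 of 3 over 0.1, and 1 of 3 E20 samples correlated best with its own number at P25, so E20 and P25, the ages compared by tests here, were not taken as paired; over E20 and all postnatal ages 1 of 9 such correlations was over 0.1. Among P5, P15 and P25 all 9 were over 0.1 (0.13 to 0.56), against 1 of 18 for different numbers. Replicate 1 also had the fewest detected miRNAs at P5, P15 and P25 (224, 179 and 202). Pairing of the postnatal samples by number and a likeness of their arrays in detection therefore cannot be told apart. No test was made between postnatal ages. With the replicate number as a block, 32 miRNAs passed (10 higher and 22 lower), and the differences of miR-375 and miR-7a were still 8.09 and -0.50. Wells above CT 35, which include all those of miR-7a and miR-7b, limit what can be said of these.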
